A study of Mus musculus with 10 samples.

Results

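The collagen genes were examined in RNA sequencing of mouse popliteal lymph nodes, the nodes behind the knee that drain the hind paw. A gene was counted as a collagen gene when the deposited table called it protein coding and its symbol had the form Col, a number, the letter a and a number. This rule found 44 of the 54987 genes in the table. They comprise 11 fibrillar, 6 basement membrane, 6 beaded filament, 9 FACIT, 2 multiplexin, 3 short chain network, 4 transmembrane and 3 anchoring or remaining collagen chains. The Acu group had adjuvant in the paw and needles at ST36, an acupuncture point on the shin (3 libraries, labelled 4, 6 and 28). The AIA group had an injection of complete Freund's adjuvant (0.1 ml), killed mycobacteria in oil, under the skin of the right hind paw, which provokes arthritis (4 libraries, labelled 5, 10, 31 and 38). The Control group had the same volume of saline (3 libraries, labelled 15, 16 and 17). All animals are given as male BALB/c mice of 6 to 8 weeks, and nodes were taken on day 15. A sham acupuncture group named in the protocols was not analysed here. Whether every library is from a different animal is not stated, and the p-values cover the library-to-library spread alone. The comparisons ask what the adjuvant did in the draining node and what acupuncture did in addition.

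Collagens are secreted proteins whose alpha chains wind around each other into a helix, and each gene encodes an alpha chain. Fibrillar collagens pack into fibres, type IV collagen forms the sheet of basement membranes under vessels and around fat and muscle cells, and type VI collagen forms beaded filaments that link cells to both. In a lymph node, fibroblastic reticular cells wrap collagen fibres in basement membrane to make the conduits that carry fluid, and collagen also builds the capsule and the vessel walls. The node lies in fat, beside muscle.

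Some chains of the same molecule are encoded side by side, while others, such as Col1a1 and Col1a2, lie on different chromosomes. Col4a1 and Col4a2, which build the common type IV network, lie head to head on chromosome 8 and overlap by 22 bases in mm10. Col4a4 and Col4a3, chains of the type IV network of kidney and lung, lie head to head on chromosome 1 with 71 bases between them. The windows from 250 bases before to 50 bases after the RefSeq start are shown because Col4a1 and Col4a2 kept close to a fixed ratio in all 10 libraries, and Col4a3 and Col4a4 did so in the 4 libraries where both were above 0.2 FPKM. They were chosen after the levels were seen, come from GRCm38.p6, and run 5' to 3' on each gene's own strand. Capitals mark CCAAT and GGGCGG, the letters bound by CCAAT-box and GC-box factors, on either strand (ATTGG and CCGCCC on the other). The coordinates are chr8:11312777-11313076 on the minus strand for Col4a1, chr8:11312555-11312854 on the plus strand for Col4a2 and chr1:82586800-82587099 on the minus strand for Col4a4.
Col4a1: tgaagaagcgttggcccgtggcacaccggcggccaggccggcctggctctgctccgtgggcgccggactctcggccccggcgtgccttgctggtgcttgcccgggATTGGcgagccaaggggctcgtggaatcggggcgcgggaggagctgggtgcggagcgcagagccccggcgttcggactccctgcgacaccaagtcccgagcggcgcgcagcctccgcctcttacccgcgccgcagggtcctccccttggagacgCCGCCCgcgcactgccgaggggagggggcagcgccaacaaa
Col4a2: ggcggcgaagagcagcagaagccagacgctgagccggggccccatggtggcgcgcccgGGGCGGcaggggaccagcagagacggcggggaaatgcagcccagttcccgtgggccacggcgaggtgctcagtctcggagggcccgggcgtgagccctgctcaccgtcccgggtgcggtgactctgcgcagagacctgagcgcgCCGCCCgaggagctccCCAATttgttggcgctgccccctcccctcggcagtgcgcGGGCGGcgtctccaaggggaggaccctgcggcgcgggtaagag
Col4a4: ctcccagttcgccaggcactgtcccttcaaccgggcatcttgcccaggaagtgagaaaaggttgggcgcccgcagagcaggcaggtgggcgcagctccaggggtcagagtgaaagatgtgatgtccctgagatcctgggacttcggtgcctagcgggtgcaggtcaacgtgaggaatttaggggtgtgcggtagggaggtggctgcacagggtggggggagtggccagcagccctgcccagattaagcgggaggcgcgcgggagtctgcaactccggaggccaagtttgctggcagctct
The first 2 windows share 78 bases, identical as reverse complements, so a stretch of 522 bases holds both starts. The shared stretch holds 1 GGGCGG and 0 CCAAT. Col4a1 has 1 CCAAT and 1 GGGCGG in its window, Col4a2 has 1 and 3, and Col4a4 has 0 of either. TATAAA was in none of the 3. Over the 38 windows of the 35 collagen genes that the table held, 34.2% had CCAAT and 60.5% had GGGCGG, against 37.4% and 35.7% of all 32851 windows. A match is a run of letters, and its use by a factor was not measured. Col1a1, Col2a1, Col4a3, Col5a2, Col9a3, Col12a1, Col14a1, Col22a1 and Col26a1 had no entry.

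Libraries of the same group were far apart, which touches every collagen result. The libraries with the labels Acu 4 and Control 17 held genes of the pregnant uterus and placenta, although all animals are given as male. Prl8a2, a decidual prolactin, was 3901 FPKM in Acu 4 and 10739 FPKM in Control 17, against at most 1.36 FPKM elsewhere. Decidual markers averaged 5.55 and 7.17 on the log2(FPKM + 1) scale in Acu 4 and Control 17, with 8 of 8 at 1 FPKM or more, and between 0.278 and 0.774 in the other 8 libraries. Trophoblast markers, of the placenta, set the 2 apart. They averaged 6.52 in Acu 4, 1.63 in Control 17 and 0.00480 to 0.264 in the other 8 libraries. B cell markers, which a lymph node should hold, averaged 0.430 in Acu 4, 0.538 in Control 15 and 0.243 in Control 17, and lay at 5.94 to 6.56 in the 7 remaining libraries. Adipocyte markers averaged 1.49 to 3.68 in Acu and AIA, and 9.83, 7.76 and 1.04 in Control 15, 16 and 17, with 8 of 8 at 1 FPKM or more in Control 15 and 16. Each result is therefore given over all 10 libraries and over the 8 without Control 17 and Acu 4. In such bulk samples, fewer cells of a type and less RNA per cell cannot be told apart.

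Collagen RNA was a small part of each library and came mostly from 6 genes. The 44 genes summed to 2703, 301.2 and 259.5 FPKM in Acu 4, 6 and 28. The sum was 413.8, 227.0, 225.9 and 344.7 FPKM in AIA 5, 10, 31 and 38. In Control 15, 16 and 17 it was 999.2, 277.8 and 1477 FPKM. The high values were those of Acu 4, Control 17 and Control 15, and the other 7 libraries lay between 225.9 and 413.8 FPKM. As a share of all summed FPKM, collagens took 0.637% in Acu 4, 0.219% in Control 15 and 0.366% in Control 17, and 0.0336% to 0.0878% in the others. Behind these values stood 23949 collagen reads in AIA 10 and up to 355691 in Acu 4, from totals of 13269763 to 18926894 reads. Col4a1, Col3a1, Col1a1, Col4a2, Col1a2 and Col6a1 together held 66.6% to 84.5% of collagen FPKM in every library.

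**Figure D1:**
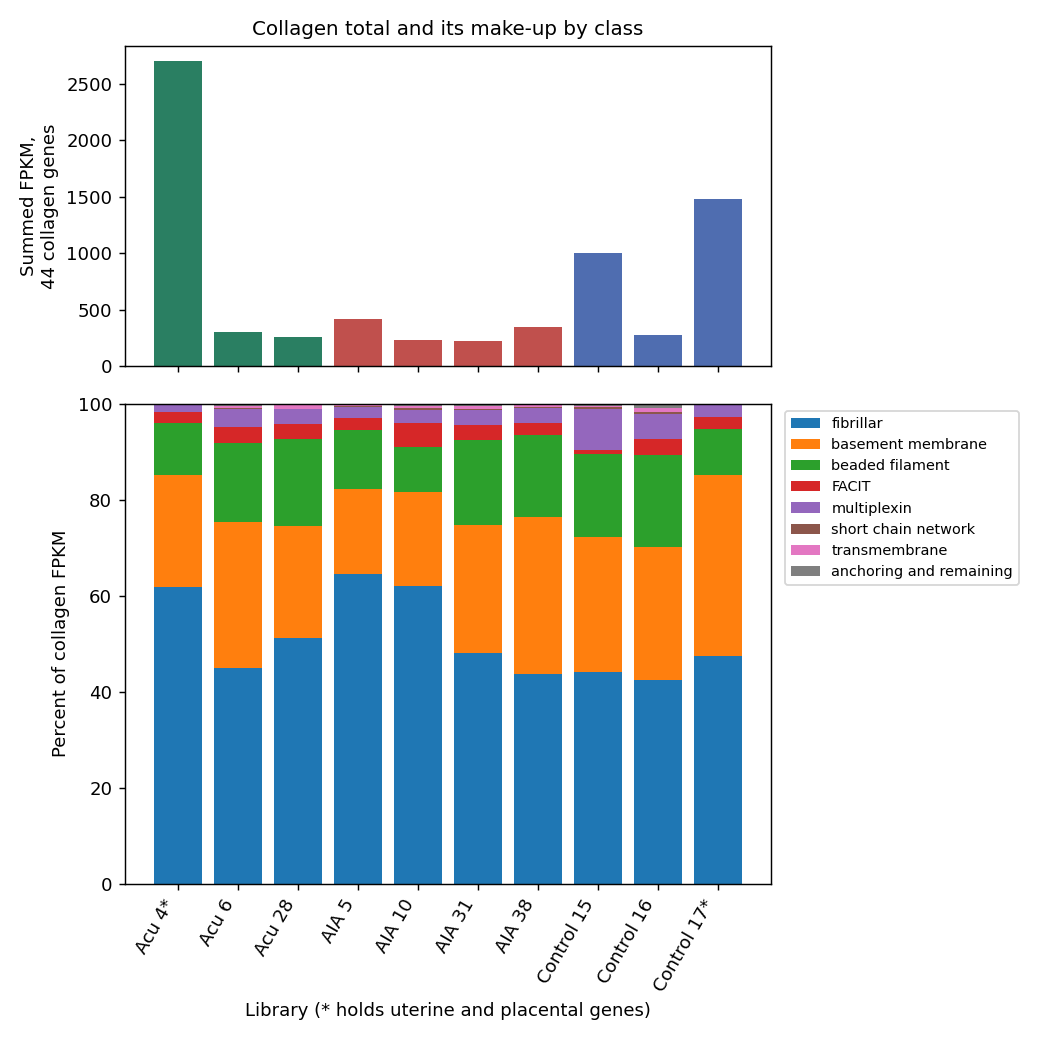
Summed FPKM of the 44 collagen genes in each library (upper bars, coloured by group) and the percent of that sum in each collagen class (lower stacked bars). The total runs between 225.9 FPKM in AIA 31 and 2703 FPKM in Acu 4, while fibrillar and basement membrane chains lead in every library.

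The make-up by class varied less than the total. Fibrillar chains held 61.9%, 45.0% and 51.1% of collagen FPKM in Acu 4, 6 and 28, 64.5%, 62.1%, 48.2% and 43.8% in AIA 5, 10, 31 and 38, and 44.1%, 42.4% and 47.5% in Control 15, 16 and 17. Basement membrane chains held 17.8% in AIA 5 up to 37.7% in Control 17, and beaded filament chains 9.33% in AIA 10 up to 19.1% in Control 16. The multiplexin share was 1.61% to 3.69% in Acu, AIA and Control 17, and 8.46% and 5.06% in Control 15 and 16. The groups overlapped in the fibrillar, basement membrane and beaded filament shares.

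**Figure D2:**
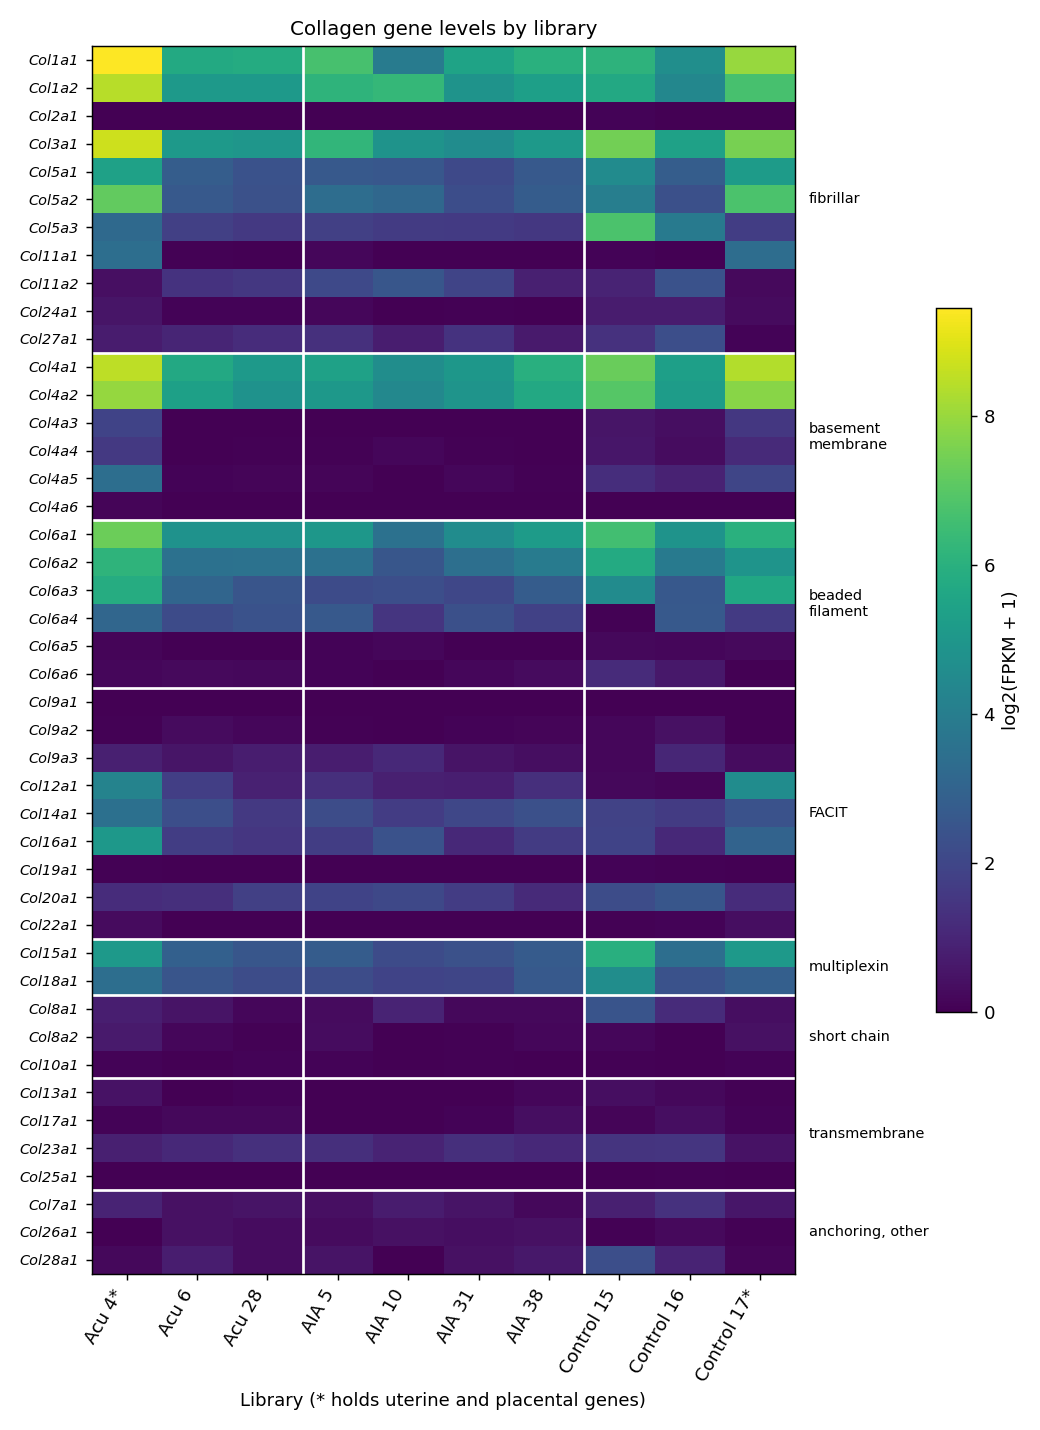
Level of each of the 44 collagen genes (rows, by class) in each of the 10 libraries (columns, by group) as log2(FPKM + 1), dark to bright. The rows of Col1a1, Col1a2, Col3a1, Col4a1, Col4a2 and Col6a1 are the brightest, and Acu 4, Control 15 and Control 17 are the brightest columns.

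The leading fibrillar chains are Col1a1 and Col1a2, which form type I collagen of tendon, skin and capsule, and Col3a1, which forms the fine reticular fibres of lymphoid tissue. Col1a1 (chromosome 11, 94936224 to 94953042 in mm10) was 701, 52.8 and 55.6 FPKM in Acu 4, 6 and 28, 102, 14.4, 44.2 and 63.6 FPKM in AIA 5, 10, 31 and 38, and 69.0, 24.4 and 256 FPKM in Control 15, 16 and 17. Acu 4 and Control 17 were highest, and the groups overlapped. Col1a2 (chromosome 6, 4504814 to 4541544) was 347, 32.5 and 33.6 FPKM in Acu, 69.3, 77.9, 27.6 and 39.6 FPKM in AIA, and 51.4, 20.0 and 104 FPKM in Control, in the same order of libraries. Col3a1 (chromosome 1, 45311538 to 45349706) was 420, 33.9 and 29.9 FPKM in Acu, 73.3, 28.2, 23.4 and 33.5 FPKM in AIA, and 172, 41.3 and 184 FPKM in Control. All 3 genes overlapped between every pair of groups over the 10 libraries. Without Control 17 and Acu 4, Col3a1 was higher in both Control libraries than in both Acu libraries, while AIA 5 stood between Control 16 and Control 15.

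Type V collagen starts and thins fibres, and its chains did not move alike. Col5a1 (chromosome 2, 27886425 to 28039514) was 41.0, 5.99 and 4.23 FPKM in Acu, 5.20, 4.85, 3.30 and 5.24 FPKM in AIA, and 22.6, 5.93 and 35.7 FPKM in Control. Every AIA library lay below every Control library, and Col5a1 overlaps the antisense-strand gene 2810430I11Rik, whose reads cannot be told apart without strand. Col5a2 (chromosome 1, 45374321 to 45503282) was 143, 5.29 and 4.07 FPKM in Acu, 9.43, 7.85, 3.69 and 5.69 FPKM in AIA, and 15.4, 3.93 and 109 FPKM in Control, with overlap between all groups. Col5a3 (chromosome 9, 20770050 to 20815067), a chain that mice make in fat, skeletal muscle and pancreatic islets, was 8.48, 2.46 and 1.96 FPKM in Acu, 2.45, 2.16, 2.07 and 1.92 FPKM in AIA, and 107, 13.7 and 2.31 FPKM in Control. The high libraries for this chain were Control 15 and Control 16, while Control 17 lay inside the AIA range. Reads of Col5a3 numbered 167 to 919 in Acu, AIA and Control 17, and 12016 and 1440 in Control 15 and 16. Adipoq, a secreted protein of fat cells, was 0 in Acu 4, 1.23 to 13.9 FPKM in the other Acu and the AIA libraries, and 1294, 336 and 0 FPKM in Control 15, 16 and 17. Fabp4, another adipocyte marker, was 118 FPKM in Acu 4 and 19.3 to 75.8 FPKM in the other Acu and the AIA libraries. It was 4421, 1279 and 234 FPKM in Control 15, 16 and 17, so it did not drop out where Adipoq did. Skeletal muscle markers summed to 2050 and 7676 FPKM in Control 15 and 16, the reverse of the order of Col5a3. The part of fat or muscle in the Col5a3 result was not tested.

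The remaining fibrillar chains were low. Col11a1, a chain of cartilage fibrils, was 9.69 FPKM in Acu 4 and 9.33 FPKM in Control 17, and at most 0.112 FPKM elsewhere. Col11a2, its partner in cartilage, was 0.294, 1.60 and 1.91 FPKM in Acu, 3.22, 4.82, 2.83 and 0.766 FPKM in AIA, and 0.917, 4.19 and 0.191 FPKM in Control. Acu 4 and Control 17 were thus highest for Col11a1 and lowest for Col11a2. Col27a1 ranged between 0.0600 FPKM in Control 17 and 3.83 FPKM in Control 16. Col24a1 was at most 0.639 FPKM. Col2a1, the main chain of cartilage, had at most 8 reads in any library. Of 8 cartilage and bone markers, 0 reached 1 FPKM outside Acu 4, where 1 did.

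**Figure D3:**
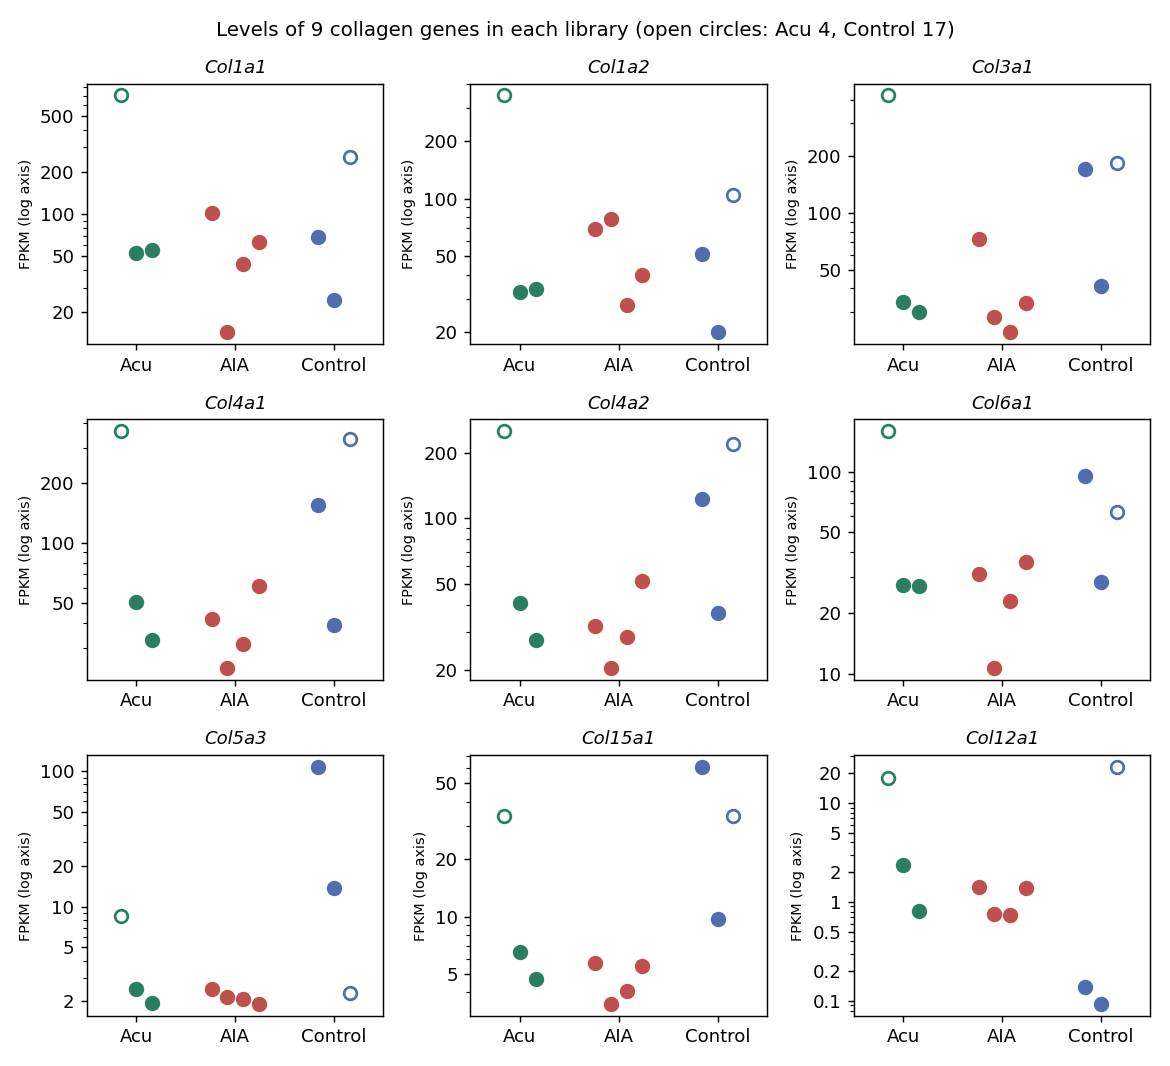
FPKM (log axis) of 9 collagen genes in each library, by group, with Acu 4 and Control 17 as open circles. The 4 AIA circles of Col5a3 lie between 1.92 and 2.45 FPKM, below 13.7 and 107 FPKM in Control 16 and 15, and those of Col12a1 lie above both.

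Ratios between chains of the same molecule were steadier than their levels for some pairs, such as Col4a1 with Col4a2 and Col6a1 with Col6a2. Col4a1 to Col4a2 was 1.44, 1.25 and 1.20 in Acu 4, 6 and 28, 1.31, 1.163, 1.10 and 1.18 in AIA 5, 10, 31 and 38, and 1.27, 1.07 and 1.51 in Control 15, 16 and 17. Across the same libraries Col4a1 itself spanned 23.8 to 362 FPKM. Col6a1 to Col6a2 kept between 1.79 in Control 15 and 3.01 in AIA 5, but Col6a1 to Col6a3 ran between 9.07 in AIA 5 and 1.299 in Control 17, and between 2.76 and 9.07 without Acu 4 and Control 17. Col1a1 to Col1a2, in contrast, was 0.185 in AIA 10 and 1.22 to 2.46 in the other 9 libraries. That library had 1073 reads of Col1a1 and 10971 reads of Col1a2, and 15116 genes above 0, against 21224 to 24411 in the other libraries. The part of this low gene number in the ratio was not tested. Col1a1 to Col3a1 was 0.511 in AIA 10, 1.39 to 1.90 in the other AIA and the Acu libraries, and 0.401, 0.590 and 1.39 in Control 15, 16 and 17. Col5a1 to Col5a2 was 0.287 in Acu 4, 0.551 to 1.13 in Acu 6 and 28 and in AIA, and 1.47, 1.51 and 0.328 in Control 15, 16 and 17. Col5a3 to Col5a1 was 0.207 in Acu 4, 0.366 to 0.627 in Acu 6 and 28 and in AIA, and 4.74, 2.31 and 0.0648 in Control 15, 16 and 17. Without Acu 4 and Control 17, the Control libraries did not overlap AIA in either type V ratio. This was not particular to type V, and other ratios did not overlap even over all 10 libraries. Col6a1 to Col6a2 was 2.24 to 3.01 in AIA and 1.79 to 2.20 in Control. Col15a1 to Col18a1 was 1.07 to 1.59 in AIA and 2.29 to 5.39 in Control.

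**Figure D4:**
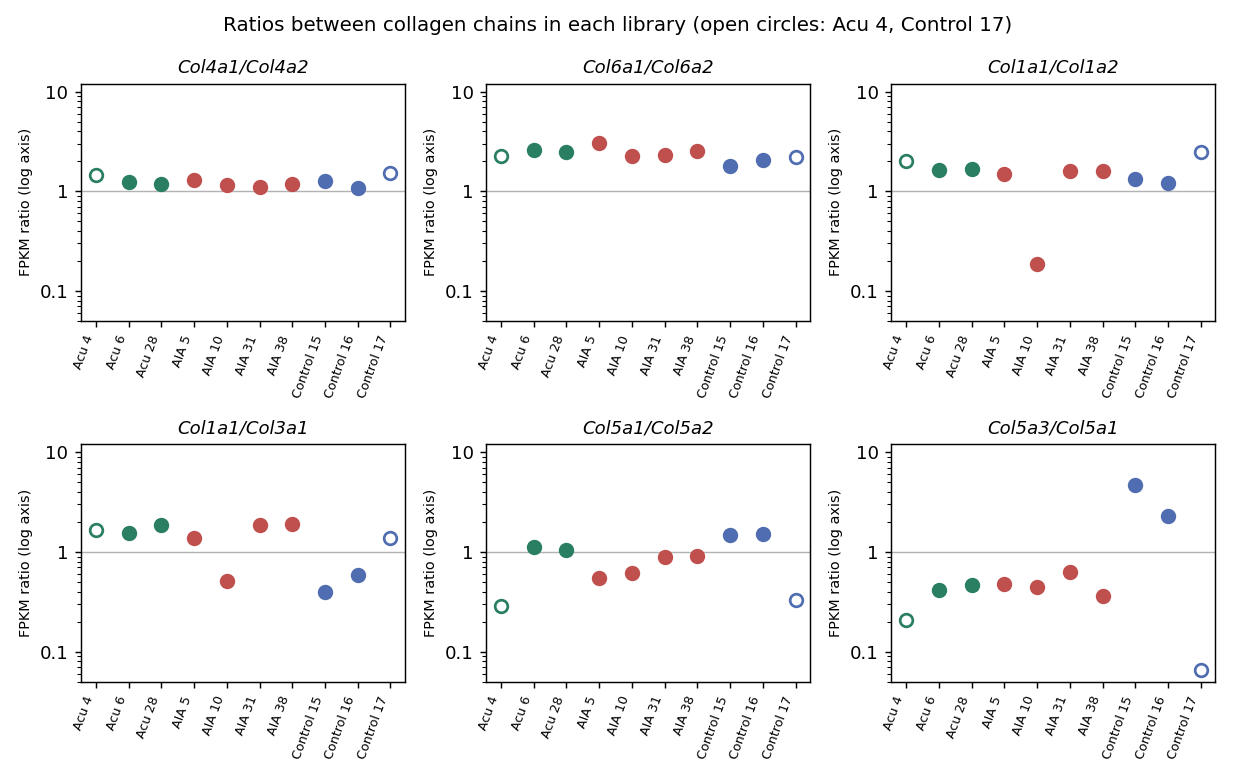
Ratio of FPKM between collagen chains (log axis) in each library, with Acu 4 and Control 17 as open circles and a line at a ratio of 1. Col4a1/Col4a2 stays between 1.07 and 1.51, whereas Col1a1/Col1a2 drops to 0.185 in AIA 10 and Col5a3/Col5a1 reaches 4.74 in Control 15.

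Among the basement membrane chains, the common pair was high and the others low. Col4a1 (chromosome 8, 11198423 to 11312826) was 362, 50.8 and 32.9 FPKM in Acu, 41.7, 23.8, 31.3 and 60.9 FPKM in AIA, and 156, 39.0 and 331 FPKM in Control. Col4a2 (chromosome 8, 11312805 to 11449287) was 251, 40.8 and 27.5 FPKM in Acu, 31.8, 20.5, 28.4 and 51.7 FPKM in AIA, and 122, 36.6 and 219 FPKM in Control. Acu 4, Control 15 and Control 17 were the high libraries for both, and AIA 38 overlapped Control 16. Because these 2 genes overlap on opposite strands and strand-specific counting is not stated, reads in the 22 shared bases cannot be assigned. Col4a5 (chromosome X, 141475385 to 141689234), a chain of kidney and skin basement membranes, was 9.55, 0.0587 and 0.104 FPKM in Acu, 0.0913, 0, 0.126 and 0.0350 FPKM in AIA, and 1.37, 0.877 and 2.90 FPKM in Control. Every AIA library was below every Control library, and Acu 4 was above them all. Among Acu 4 and the 3 Control libraries, Col4a3 and Col4a4 had the same order as Col4a5, and the rest were lower. Col4a3 was 2.73, 0.0148 and 0.0150 FPKM in Acu, at most 0.00684 FPKM in AIA, and 0.446, 0.273 and 1.86 FPKM in Control. Col4a4 was 1.99, 0.0232 and 0.0282 FPKM in Acu, 0.0450, 0.108, 0.0424 and 0.00554 FPKM in AIA, and 0.470, 0.232 and 1.18 FPKM in Control. Where both were above 0.2 FPKM, in Acu 4 and the 3 Control libraries, Col4a3 to Col4a4 was 1.37, 0.948, 1.18 and 1.58. In the other 6 libraries Col4a3 had 0 to 3 reads and Col4a4 1 to 13, too few for a ratio. Col4a6, which shares a promoter region with Col4a5, was at 0 in 8 libraries and had 11 reads in Acu 4 and 1 read in Control 17, where a count of 0 allows up to 3 reads.

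Type VI collagen surrounds fat, muscle and nerve cells. Col6a1 (chromosome 10, 76708792 to 76726168) was 158, 27.5 and 27.2 FPKM in Acu, 31.3, 10.7, 22.9 and 35.8 FPKM in AIA, and 95.2, 28.3 and 62.9 FPKM in Control. Col6a2 (chromosome 10, 76595762 to 76623630) was 70.6, 10.5 and 10.9 FPKM in Acu, 10.4, 4.77, 9.87 and 14.3 FPKM in AIA, and 53.3, 13.9 and 28.5 FPKM in Control. Col6a3 (chromosome 1, 90765923 to 90843971) was 57.3, 7.50 and 4.68 FPKM in Acu, 3.45, 3.86, 3.06 and 5.71 FPKM in AIA, and 22.8, 5.10 and 48.4 FPKM in Control. In all 3, AIA 38 overlapped Control 16. Col6a4 went another way, with 7.71, 3.42 and 4.22 FPKM in Acu, 5.17, 1.76, 3.90 and 2.52 FPKM in AIA, and 0.0357, 5.20 and 2.03 FPKM in Control. Col6a5 and Col6a6, its neighbours on chromosome 9, were at most 0.166 and 1.26 FPKM.

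The multiplexins lie at the edge of basement membranes and carry sugar chains, and the end of Col18a1 can be cut off as endostatin. Col15a1 (chromosome 4, 47208161 to 47313167) was 33.8, 6.56 and 4.72 FPKM in Acu, 5.69, 3.49, 4.09 and 5.52 FPKM in AIA, and 60.9, 9.78 and 33.5 FPKM in Control. Every AIA library was below every Control library, and Acu 4 lay among the Control values. Col18a1 (chromosome 10, 77052178 to 77166548) was 9.74, 4.57 and 3.64 FPKM in Acu, 3.57, 2.73, 2.92 and 5.18 FPKM in AIA, and 23.6, 4.28 and 6.22 FPKM in Control, with AIA 38 above Control 16. Col15a1 overlaps the antisense gene Gm12426 by 299 bases and Col18a1 overlaps Slc19a1 by 8825 bases, so reads there are uncertain without strand.

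FACIT collagens sit on the surface of fibres. Col12a1 (chromosome 9, 79598991 to 79718831), a chain of tendon and of tissue under load, was 17.9, 2.37 and 0.808 FPKM in Acu, 1.40, 0.759, 0.739 and 1.40 FPKM in AIA, and 0.140, 0.0935 and 23.0 FPKM in Control. Control 15 and Control 16 were the lowest libraries, and Control 17 the highest. Col14a1 (chromosome 15, 55307750 to 55520803), which binds fibres through decorin, was 10.1, 3.87 and 2.003 FPKM in Acu, 3.59, 2.18, 2.99 and 3.89 FPKM in AIA, and 2.68, 2.13 and 4.17 FPKM in Control. Without Acu 4 it was the steadiest of the FACIT chains named here, within 2.003 to 4.17 FPKM. Col16a1 ranged between 1.10 and 32.3 FPKM, Col20a1 between 1.19 and 4.78 FPKM and Col9a3 between 0.126 and 1.14 FPKM. Col9a1, Col9a2, Col19a1 and Col22a1 were at most 0.335 FPKM.

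The rest of the family stayed under 5 FPKM. Col8a1, a chain of vessel walls and of the cornea, was 0.725, 0.415 and 0.117 FPKM in Acu, 0.227, 0.933, 0.165 and 0.138 FPKM in AIA, and 4.49, 1.24 and 0.268 FPKM in Control. Col28a1, a chain around peripheral nerves, was 0.141, 0.684 and 0.244 FPKM in Acu, 0.431, 0, 0.356 and 0.516 FPKM in AIA, and 3.77, 0.924 and 0.0930 FPKM in Control. Control 15 and 16 were highest for both, and Schwann cell and nerve markers averaged 1.05 to 1.65 on the log2 scale in Acu, AIA and Control 17, and 3.89 and 2.95 in those 2 libraries. The part of nerve in these levels was not tested. Col7a1, of the anchoring fibrils of skin, was at most 1.54 FPKM and the transmembrane chain Col23a1 at most 1.76 FPKM. The short chain and transmembrane members Col8a2, Col10a1, Col13a1, Col17a1 and Col25a1 were at most 0.616 FPKM, and Col26a1 at most 0.356 FPKM.

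AIA was first set against Control. Over all 10 libraries no collagen gene passed limma's test at an adjusted p under 0.05, and the collagen values leaned lower in AIA. A total of 26 collagen genes reached 0.5 FPKM in at least 3 libraries and could be tested, and 18 could not. limma called 0 of the 26 and 4 of 17010 genes tested, or 0.0235%. At an unadjusted p under 0.05, 4 members were lower in AIA (Col15a1, Col5a3, Col5a1 and Col6a3) and 0 higher, against 13.4% of all genes lower and 11.6% higher. Col15a1 averaged 4.70 ± 1.08 FPKM in AIA (SD, n = 4) and 34.7 ± 25.6 FPKM in Control (SD, n = 3), a log2 fold change of FPKM + 1 of -2.34 (SE 0.70, limma adjusted p = 0.103). Col5a3 averaged 2.15 ± 0.226 FPKM in AIA and 41.1 ± 57.6 FPKM in Control (SD, n = 4 and 3), a change of -2.47 (SE 0.95, limma adjusted p = 0.154). The change was -1.70 for Col5a1 (SE 0.75, limma adjusted p = 0.193) and -1.97 for Col6a3 (SE 0.85, limma adjusted p = 0.188). The median of the 26 members was -0.82, with 20 below 0, beside a median of -0.067 over all genes tested, with 9095 of 17010 below 0. Groups did not overlap for 3 of the 26, all lower in AIA (Col5a1, Col15a1 and Col4a5), against 13.8% of all genes lower and 11.4% higher. Col4a5 reached 0.5 FPKM only in Acu 4 and the 3 Control libraries, so its place among the 3 was built in.

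Without Control 17 and Acu 4, Col5a3 and Col15a1 fell in AIA. Control and Acu then have 2 libraries each, and limma takes the spread of each gene from all 3 groups. Col5a3 fell by 3.67 on the log2 scale (SE 0.66, limma adjusted p = 0.0115) and Col15a1 fell by 2.20 (SE 0.61, limma adjusted p = 0.0484). Col5a3 was lower in 4 of 4 AIA libraries than in either Control library, and so was Col15a1. These were 2 of 25 members tested, both lower, against 13.4% of all 16067 genes called, 9.06% lower and 4.36% higher, so the share of members called was not above that of all genes. At an unadjusted p under 0.05 there were 10 of 25, against 30.3% of all genes. The median of the members was -0.78, and without Control 15 as well it was -0.31, with 3 of 23 members at an unadjusted p under 0.05. Without Control 15 as well, which had the highest fat markers and few B cell genes, Col5a3 fell by 2.22 (SE 0.29, limma adjusted p = 0.0213) against the lone library Control 16, which is then assumed to vary like the other groups, with 2.83% of all genes called. Col15a1 then had -0.94 (SE 0.36, limma adjusted p = 0.269), and without AIA 10 in place of Control 15 it had -2.09 (SE 0.66, limma adjusted p = 0.0611). Without AIA 10 the change of Col5a3 was -3.67 (SE 0.73, limma adjusted p = 0.0169), with 21.5% of all genes called.

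The other chains named by rule did not pass over the 8 libraries. The log2 fold change was 0.14 (SE 0.73) for Col1a1, 0.60 (SE 0.53) for Col1a2 and -1.22 (SE 0.63) for Col3a1. It was -1.05 (SE 0.59) for Col4a1 and -1.07 (SE 0.54) for Col4a2. Among the type VI chains it was -1.15 (SE 0.59) for Col6a1, -1.48 (SE 0.56) for Col6a2, -1.29 (SE 0.52) for Col6a3 and 0.71 (SE 0.65) for Col6a4. Col1a1, Col1a2 and Col6a4 thus stood above 0 and the other chains of this set below it, a difference that was not tested. Col5a1 had -1.20 (SE 0.47), Col5a2 -0.29 (SE 0.51), Col18a1 -1.34 (SE 0.56) and Col14a1 0.27 (SE 0.31). Col12a1, singled out after its values were seen, had 0.88 (SE 0.31, limma adjusted p = 0.102), with 4 of 4 AIA libraries above Control 15 and 16. It was 0.140 and 0.0935 FPKM in Control 15 and 16. Over these 8 libraries it passed the filter only through AIA and Acu, so a higher value in AIA was built in. Of the 25 tested members, 8 lay wholly below Control and 1, Col12a1, wholly above, against 20.8% and 18% of all genes.

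Genes low in AIA and Acu but present in Control 15 and 16 were partly kept out by the filter. When genes with 0.5 FPKM in at least 2 of the 8 libraries were tested, a setting added after seeing the data, 6 of 28 members fell in AIA and 0 rose. The share of all 17578 genes called was 16.4%, with 11.9% lower. The 6 were Col5a3, Col4a5, Col24a1, Col6a6, Col8a1 and Col15a1, with changes between -3.67 and -0.64 and limma adjusted p between 0.01003 and 0.0456. Col4a5 fell by 0.99 on this scale (SE 0.18, limma adjusted p = 0.01003). The 3 members that entered, Col4a5, Col6a6 and Col24a1, passed the filter only through their level in Control, so a lower value in AIA was built in.

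**Figure D5:**
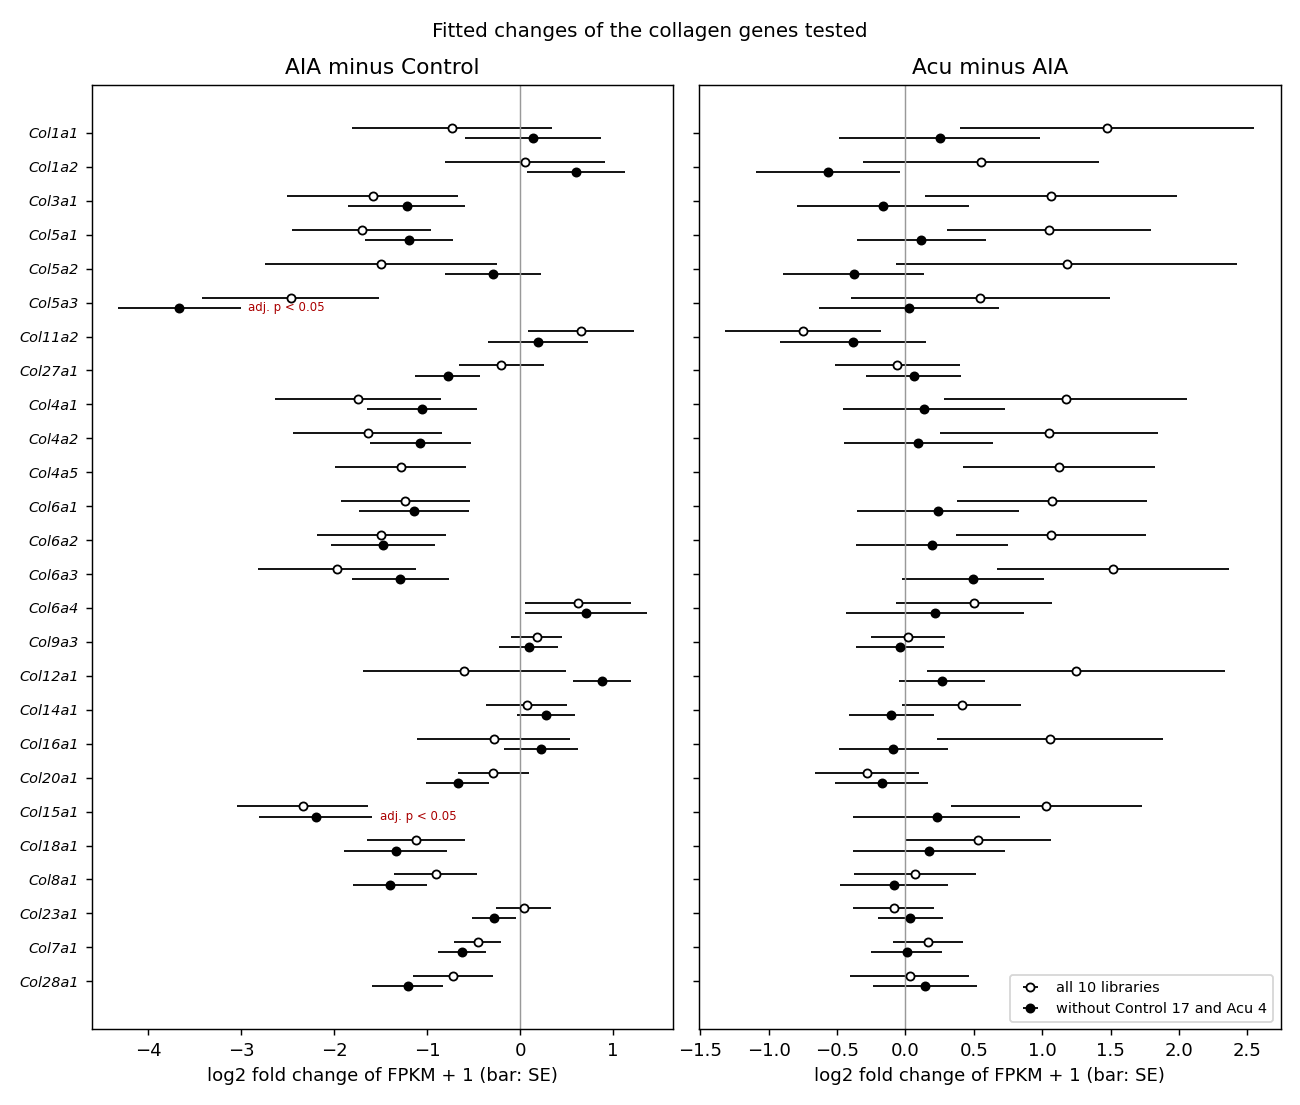
log2 fold change of FPKM + 1 with its SE for the collagen genes tested, AIA minus Control (left) and Acu minus AIA (right), over all 10 libraries (open) and over 8 libraries (filled). The points marked as called on the left are Col5a3 at -3.67 and Col15a1 at -2.20, and no point is marked on the right.

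Markers of several cell types moved with these results. The counts called below stand beside 9.06% of all genes lower and 4.36% higher, without Control 17 and Acu 4. Without Control 17 and Acu 4, adipocyte markers summed to 42.7 to 274 FPKM in AIA and to 6583 and 19143 FPKM in Control 16 and 15, and 7 of 7 tested fell in AIA by limma. Endothelial markers summed to 75.5 to 129 FPKM in AIA and to 262 and 521 FPKM in Control, and 6 of 8 fell. General fibroblast markers summed to 129 to 179 FPKM in AIA and to 159 and 395 FPKM in Control 16 and 15, and 3 of 8 fell. The sum of Control 16 was within the AIA range. Thy1 of this list went the other way, with 68.2 to 86.4 FPKM in AIA and 10.4 and 45.4 FPKM in Control 15 and 16. Fibroblastic reticular markers are 8 symbols that fill 10 rows of the table because Ccl19 and Ccl21a are each listed 2 times. They summed to 328 to 484 FPKM in AIA, and to 9.24 and 361 FPKM in Control 15 and 16. Control 16 thus lay inside the AIA range of sums. Their averages on the log2 scale were 2.79 to 3.31 in AIA, and 0.611 and 2.45 in Control 15 and 16. Of the 9 rows tested 1 rose and 0 fell in AIA, and 0 rose without Control 15, while Pdpn, a defining marker, was at 0 in all libraries but Acu 4, where it was 0.0346 FPKM. Pericyte and smooth muscle markers summed to 76.2 to 131 FPKM in AIA and to 321 and 359 FPKM in Control, and 2 of 6 tested fell. Skeletal muscle markers summed to 4.05 to 1144 FPKM in AIA and to 2050.05 and 7676 FPKM in Control 15 and 16, and 2 of 8 fell. At 1 FPKM or more were 4 to 7 of 8 adipocyte markers in AIA and 8 of 8 in Control 15 and 16, while 8 of 8 endothelial markers were at that level in all 10 libraries. The part of these cells in the collagen results was not tested. In Control 17, which held decidual genes, adipocyte markers averaged 1.04 on the log2 scale. Adipoq was at 0 there, but Fabp4 was 234 FPKM, against 19.3 to 75.8 FPKM in AIA. Col15a1 was 33.5 FPKM and Col5a3 was 2.31 FPKM in Control 17, and what set these levels was not tested.

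Acu was then set against AIA, the comparison that asks what acupuncture added. No collagen gene was called, either over all 10 libraries or over 8, and Acu 6 and Acu 28 lay close to the AIA libraries. limma called 0 of 26 members over 10 libraries and 0 of 25 over 8, against 0% of all genes in each. At an unadjusted p under 0.05 there were 0 members in both, against 4.7% and 2.98% of all genes. Over 10 libraries the median member change was 0.79, with 22 of 26 above 0, and over 8 libraries it was 0.06, with 16 of 25 above 0. Over all genes tested the median was 0.079 over 10 libraries, with 9482 of 17010 above 0. Over 8 libraries it was 0.060, with 9002 of 16067 above 0. The 2 member medians differ by which libraries entered, and Acu 4 held 2703 FPKM of collagen against 301.2 and 259.5 FPKM in Acu 6 and 28. Over 8 libraries the change of Col1a1 was 0.25 (SE 0.73), of Col1a2 -0.57 (SE 0.53), of Col3a1 -0.16 (SE 0.63) and of Col4a1 0.14 (SE 0.59). It was 0.24 (SE 0.59) for Col6a1, 0.03 (SE 0.66) for Col5a3 and 0.23 (SE 0.61) for Col15a1. These errors were as large as most of the changes, so the test does not show that levels were equal. Groups overlapped for all tested members in both sets of libraries, while 6.04% of all genes were wholly above and 5.1% wholly below over 10 libraries, and 9.37% and 7.69% over 8. With genes in at least 2 of the 8 libraries, 0 of 28 members and 0.0626% of all genes were called.

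Acu against Control shares its libraries with both comparisons above, so its values are given side by side and are no independent support. Over 10 libraries limma called 0 of 26 members, against 0% of all genes, with 0 members at an unadjusted p under 0.05, against 7.5% of all genes. Over 8 libraries Col5a3 fell in Acu by 3.64 (SE 0.76, limma adjusted p = 0.0382). It was the only member of 25 called, against 4.34% of all genes, 3.47% lower and 0.878% higher, and 5 of 25 had an unadjusted p under 0.05, against 22.6% of all genes. Without Control 15 as well, Col5a3 had -2.20 (SE 0.31, limma adjusted p = 0.0660), and without AIA 10 in its place -3.64 (SE 0.80, limma adjusted p = 0.0318), with 0% and 13.2% of all genes called. With genes in at least 2 of the 8 libraries, Col5a3 and Col4a5 fell, 2 of 28 members, against 6.73% of all genes. Col4a5 passed that filter only through Control 15 and 16, so its lower value in Acu was built in. Col15a1 had -1.97 (SE 0.70, limma adjusted p = 0.147), beside its -2.20 in AIA. Both Acu libraries lay below both Control libraries for 11 of 25 members and above for Col12a1, against 28.6% and 32.4% of all genes. Col12a1 passed the filter there only through Acu and AIA, so its higher value in Acu was built in. Over 10 libraries the groups overlapped for all 26 members, against 4.27% of all genes wholly below and 4.87% wholly above.

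The genes that make, modify and bind collagen were followed in lists by function. Over all 10 libraries limma called 0 in each list and each comparison, and Fmod came nearest with a limma adjusted p of 0.0553 in AIA against Control. The counts that follow are for AIA against Control without Control 17 and Acu 4, beside 4.36% of all genes higher and 9.06% lower. Control is then Control 16 and Control 15, which had few B cell genes and the highest fat markers. How far the counts of these lists rest on Control 15 is not given here. Of the basement membrane partners, 8 of 12 tested fell and 0 rose, with a median change of -1.80. They were Lamb2, Nid1, Hspg2, Lama5, Lama4, Lamc3, Lamb1 and Agrn, laminin chains and the linkers nidogen, perlecan and agrin that join laminin to type IV collagen. Lamb2 was 97.1, 4.52 and 5.59 FPKM in Acu 4, 6 and 28, 2.499, 2.07, 3.16 and 4.11 FPKM in AIA 5, 10, 31 and 38, and 36.0, 16.2 and 165 FPKM in Control 15, 16 and 17. All AIA libraries were below all Control libraries, and the change was -2.70 (SE 0.38, limma adjusted p = 0.00474). Hspg2, which encodes perlecan, was 61.1, 7.33 and 4.23 FPKM in Acu, 3.04, 2.41, 3.12 and 4.74 FPKM in AIA, and 48.7, 13.1 and 35.9 FPKM in Control, a change of -2.64 (SE 0.50, limma adjusted p = 0.0140). Lamc1, the most abundant laminin chain of the list, had -1.86 (SE 0.76, limma adjusted p = 0.143). In Acu against Control 2 of 12 fell, Lamb2 and Lamc3.

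Fibril partners moved both ways. Of 10, 3 fell in AIA and 1 rose. Ogn, osteoglycin, was 78.9, 0.615 and 0.505 FPKM in Acu, 1.83, 0, 1.34 and 0.298 FPKM in AIA, and 23.4, 10.8 and 17.8 FPKM in Control, and fell by 3.31 (SE 0.48, limma adjusted p = 0.00556). Tnxb, tenascin X, which spaces fibres, fell by 2.60 (SE 0.32, limma adjusted p = 0.00340), with AIA between 0.672 and 0.838 FPKM and Control between 3.36 and 14.2 FPKM. Lumican, encoded by Lum, fell by 2.71 (SE 0.48, limma adjusted p = 0.0108). Fmod, fibromodulin, a small proteoglycan that binds type I fibres, rose by 2.62 (SE 0.43, limma adjusted p = 0.00845). Its level was 4.24, 11.1 and 10.7 FPKM in Acu, 20.6, 15.5, 9.30 and 14.2 FPKM in AIA, and 0.589, 2.92 and 1.73 FPKM in Control, with no overlap between AIA and Control over all 10 libraries. Bgn, biglycan, had 1.19 (SE 0.51, limma adjusted p = 0.157), Dcn, decorin, -0.30 (SE 0.45) and Fn1, fibronectin, 0.85 (SE 0.40). The same 4 genes passed in Acu against Control, 3 lower and Fmod higher by 2.25 (SE 0.50, limma adjusted p = 0.0439).

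Enzymes of collagen synthesis were mostly not called. Of 26 tested, 1 fell in AIA and 0 rose, with a median change of -0.52. Plod1, a lysyl hydroxylase, fell by 1.67 (SE 0.46, limma adjusted p = 0.0475), with AIA between 2.40 and 6.30 FPKM and Control between 8.49 and 25.7 FPKM. Serpinh1, the collagen chaperone of the endoplasmic reticulum, was 517, 37.1 and 41.3 FPKM in Acu, 49.5, 16.2, 38.3 and 68.8 FPKM in AIA, and 126, 43.7 and 330 FPKM in Control. Its high libraries were those with the highest collagen sums, and its change was -0.94 (SE 0.62, limma adjusted p = 0.347). Sparc had -1.53 (SE 0.59), P4hb 0.53 (SE 0.43), P4ha2 -0.72 (SE 0.25, limma adjusted p = 0.0939) and P3h4 -1.49 (SE 0.55, limma adjusted p = 0.109).

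Of 12 genes of collagen breakdown, 2 rose in AIA and 0 fell. Timp1, an inhibitor of matrix metalloproteinases, was 62.4, 17.3 and 24.3 FPKM in Acu, 22.0, 129, 32.1 and 33.1 FPKM in AIA, and 1.51, 1.89 and 40.9 FPKM in Control, and rose by 3.99 (SE 0.63, limma adjusted p = 0.00734). Mmp14, a membrane collagenase, rose by 1.64 (SE 0.43, limma adjusted p = 0.0406), with AIA between 10.2 and 24.5 FPKM and 3.18 and 5.43 FPKM in Control 16 and 15. Control 17 overlapped or exceeded AIA for both. Timp3, which is held in the matrix, had -2.53 (SE 0.72, limma adjusted p = 0.0521), while Timp2 had -0.08 (SE 0.42) and Ctsk, cathepsin K, 0.12 (SE 0.64). Ctsk was 1634 FPKM in Acu 4 and 1066 FPKM in Control 17, against 4.11 to 27.2 FPKM elsewhere. Of 7 collagen receptors tested, 1 rose. Lair1, an inhibitory receptor of leukocytes, was 0.899, 3.39 and 3.71 FPKM in Acu, 3.03, 2.04, 3.10 and 5.08 FPKM in AIA, and 0.496, 0.701 and 0.558 FPKM in Control, and rose by 1.39 (SE 0.31, limma adjusted p = 0.0255). Lair1 was low in Acu 4, Control 15 and Control 17, which had few B cell genes, and also in Control 16, where B cell markers averaged 6.18. The part of leukocyte numbers in the Lair1 levels was not tested. Itgb1, the beta chain shared by collagen-binding integrins, had -0.95 (SE 0.54), Ddr1 -0.83 (SE 0.35), Ddr2 -1.14 (SE 0.34, limma adjusted p = 0.0593), Itga2 0.74 (SE 0.26) and Mrc2, which takes up collagen, -0.48 (SE 0.43). In Acu against AIA 0 genes of any of these lists were called over 8 libraries.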

How the data were processed

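Total RNA of popliteal lymph nodes was sequenced in 10 libraries of 3 groups. The authors deposited FPKM, per the file headers, with mm10 gene coordinates. FPKM usually means fragments scaled to gene length and library size. Here the median-of-ratios factor was 1 in all 10 libraries, so the values already stood on that scale rather than on plain library size. The submitters' processing notes name HISAT2 2.0.5, StringTie 1.3.3b, featureCounts 1.5.0-p3 and DESeq2 1.16.1, with no role or order given, and no source used here gives the strand setting. FPKM steps gave whole reads (within 0.01 of a step) for 100% of genes, with 13269763 to 18926894 reads a library. Intervals of depth cover counting error only.

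Values were set to median-of-ratios scaling, which left them as deposited, and log2(FPKM + 1) was tested with limma 3.58.1 (R 4.3.3, trended variance, all groups in the same fit) over genes with 0.5 FPKM in at least 3 libraries. Benjamini-Hochberg adjusted p under 0.05 was called. The pseudocount of 1 understates changes of low genes. The script was tested on simulated data. Tables and figures used Python 3.11.15, numpy 2.4.6, pandas 2.3.3 and matplotlib 3.10.9.

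The collagen genes and the lists were chosen with earlier results of these data known. Genes were named by a rule: every collagen called over 10 or 8 libraries, 13 abundant chains (Col1a1, Col1a2, Col3a1, Col5a1, Col5a2, Col4a1, Col4a2, Col6a1, Col6a2, Col6a3, Col15a1, Col18a1 and Col14a1), and in each partner list the 3 genes of highest mean and the 3 of smallest p over 8 libraries. Other genes with values were chosen after their values were seen. Alternatives changed the scaling, pseudocount, filter, test, weights, groups and libraries. Promoter windows came from RefSeq on GRCm38.p6.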

Additional observations from a re-analysis of the deposited data

Results flagged for a closer look

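Only the 4 AIA libraries were examined, in 46 groups of values, some of which share genes. The extreme library was set against the others, and 2 groups passed Dixon's rule, both through AIA 10. Chance gives about 1 in 20, so 2 of 46 is near the number that chance alone gives. Col8a1 was 0.933 FPKM in AIA 10, from 54 reads, against 0.138 to 0.227 FPKM in the other AIA libraries, a gap of 0.888 of the whole range, above Dixon's critical value. The ratio of Col1a1 to Col1a2 was 0.185 in AIA 10, against 1.47 to 1.60 in the other AIA libraries, a gap of 0.908 of the range. AIA 10 also had the fewest genes above 0, 15116.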

How the results depend on the processing

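No paired analysis was possible because the groups share no replicate number. The edgeR alternative on recovered reads was not run, and limma voom on those reads was. Depth limits the low chains, since a count of 0 allows up to 3 reads. With FPKM as deposited all values were the same, because the scaling factor was 1 in every library, so this was no separate alternative. Leaving out Control 17, Acu 4 and AIA 10, and testing genes in at least 2 libraries, were settings chosen after seeing the data. Of 861 alternatives for 41 single-gene changes, 65 reversed the sign (14 in AIA against Control, 25 in Acu against AIA, 26 in Acu against Control). The cause of these reversals was not tested. Some alternatives could not reverse a sign, so 65 of 861 is no measure of how stable the signs were. FPKM as deposited, the 2 groups alone and leaving out a library of the third group keep the same change.

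Collagen genes called in AIA against Control, 0 over all libraries, were 6 with array weights, 1 with only the 2 groups compared, 2 without Control 17 and Acu 4, 6 there with genes in at least 2 libraries, 1 also without AIA 10 and 1 also without Control 15, and 0 to 2 when each library was left out (2 without Acu 4). In Acu against Control, also 0, they were 3 with array weights, 1 without Control 17 and Acu 4, 2 with genes in at least 2 libraries and 1 also without AIA 10. In Acu against AIA they were 0 in every alternative run. All genes called in AIA against Control, 4 in all, were 3319 with array weights, 1 with no filter, 638 with only the 2 groups, 0 with a pseudocount of 0.1, 390 scaled to equal sums (50 higher and 340 lower, against 2 and 2), 0 with voom, 2156 without Control 17 and Acu 4, 2883 with genes in at least 2 libraries, 3398 also without AIA 10, 443 also without Control 15, and 0 to 1713 leaving out each library (1713 without Acu 4). For Acu against Control, 0 in all, they were 2067 with array weights, 1 with no filter, 698 without Control 17 and Acu 4, 1183 with genes in at least 2 libraries, 2096 also without AIA 10, and 0 to 303 leaving out each (303 without Control 17). For Acu against AIA, 0 in all, they were 98 with array weights, 2 with no filter, 1 with equal sums, 11 with genes in at least 2 libraries, and 0 to 1 leaving out each. Equal sums moved the median of all genes to -0.31 in AIA against Control, 0.44 in Acu against AIA and 0.16 in Acu against Control.

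Without Control 17 and Acu 4, under either filter, log2 changes of Acu against AIA turned to -0.10 for Col14a1, -0.57 for Col1a2, -0.16 for Col3a1 and -0.38 for Col5a2, and were the same also without Control 15. Also without AIA 10 they were -0.23 for Col14a1, -0.28 for Col1a1, -0.35 for Col1a2, -0.28 for Col3a1, -0.072 for Col4a1, -0.10 for Col4a2, -0.29 for Col5a2, -0.11 for Col6a1 and -0.079 for Col6a2. For AIA against Control, Col1a1 turned to 0.14 without Control 17 and Acu 4, 0.67 also without AIA 10 and 0.87 also without Control 15, where Col5a2 was 0.57. Array weights gave Col1a2 -0.26 in AIA against Control and -0.21 in Acu against Control, and equal sums gave Col14a1 -0.20 and Col1a2 -0.32 in AIA against Control and Col6a1 0.020 in Acu against Control. Without Control 17, Acu 4 and Control 15, Acu against Control was 0.066 for Col4a1, 0.20 for Col5a2 and 0.19 for Col6a3.

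Leaving out each library gave, for Acu against AIA, -0.10 to 0.84 for Col14a1, -0.57 to 1.12 for Col1a2, -0.16 to 1.72 for Col3a1 and -0.38 to 2.04 for Col5a2, each lowest without Acu 4. For AIA against Control it gave -0.088 to 0.27 for Col14a1, -1.53 to 0.14 for Col1a1 and -0.56 to 0.60 for Col1a2. For Acu against Control it gave -0.031 to 0.91 for Col14a1, -1.03 to 0.080 for Col18a1, -0.48 to 1.61 for Col1a1, -0.52 to 1.17 for Col1a2, -1.75 to 0.13 for Col3a1, -1.61 to 0.12 for Col4a1, -1.54 to 0.026 for Col4a2, -1.88 to 0.88 for Col5a2, -0.996 to 0.25 for Col6a1, -1.30 to 0.029 for Col6a2 and -1.47 to 0.23 for Col6a3.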
